A study of Mus musculus with 7 samples.

Results

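The 9 genes described here encode the MLL-type family of methyltransferases of lysine 4 of histone H3, a related SET-domain protein and a partner protein. They are Kmt2a, Kmt2b, Kmt2c, Kmt2d, Kmt2e, Setd1a, Setd1b, the related SET-domain gene Setd5 and the partner gene Paxip1. They were chosen by name, by matching the gene identifiers of the deposited count table to mouse gene symbols, and all 9 were found among 27179 genes. The choice was made with earlier results in view, above all the high reads of Kmt2d and the low reads of Setd5 in the ChIP of tagged MOZ. The difference between tagged and wild-type libraries is therefore given for these genes as a description, with no test.

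The data are chromatin immunoprecipitation sequencing (ChIP-seq) of MOZ, the MYST-family histone acetyltransferase KAT6A, in the first and the second pharyngeal arches of mouse embryos of strain C57BL/6, taken at E10.5. In 3 libraries (V5 libraries) the embryos were homozygous for a Moz allele with a Flag-V5-BIO tag at the carboxy-terminus, made in embryonic stem cells, and such mice are described as viable and fertile. In 3 libraries (wild-type libraries) the embryos had no tag and the same anti-V5 immunoprecipitation was made, so their reads are the background of the antibody step. A single input library came from tagged arches without immunoprecipitation, and no input of wild-type arches was analysed. All groups share the strain, the stage and the tissue; the sources used here do not state whether arches were pooled over embryos, so the spread between libraries may be partly technical. The reads are genomic DNA counted over genes, so a count is not an expression level and the tissue label cannot be checked with marker genes.

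Methylation of histone H3 at lysine 4 marks active promoters and enhancers. The enzymes that write it work in complexes named after the yeast complex COMPASS, with the core subunits WDR5, RBBP5, ASH2L and DPY30. KMT2A and KMT2B, which bind menin, act at developmental promoters. KMT2C and KMT2D, which associate with PTIP (the product of Paxip1) and the demethylase KDM6A, mainly write the single methyl mark of enhancers, and SETD1A and SETD1B write most of the triple mark of active promoters. KMT2E and SETD5 have SET domains that are close relatives of each other, and their own catalytic activity is less clear. Variants of human KMT2D cause Kabuki syndrome, which affects the face, and MOZ is itself needed for normal development of the face and the pharyngeal arch region in mice.

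Kmt2d and Setd5 are the 2 genes on which the values below turn, so the sequence upstream of their start in the RefSeq promoter table (GRCm38.p6, the assembly of mm10) is shown, 250 bases each, read in the direction of the gene, with every CG pair in capitals. The Kmt2d window is chr15:98871206-98871455 on the minus strand, and the Setd5 window is chr6:113104685-113104934 on the plus strand.
Kmt2d: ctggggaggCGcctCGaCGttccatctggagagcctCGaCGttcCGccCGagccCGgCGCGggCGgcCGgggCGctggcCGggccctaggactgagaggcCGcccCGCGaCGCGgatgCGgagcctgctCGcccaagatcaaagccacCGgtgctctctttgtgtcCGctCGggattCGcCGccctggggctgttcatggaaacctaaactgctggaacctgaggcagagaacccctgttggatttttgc
Setd5: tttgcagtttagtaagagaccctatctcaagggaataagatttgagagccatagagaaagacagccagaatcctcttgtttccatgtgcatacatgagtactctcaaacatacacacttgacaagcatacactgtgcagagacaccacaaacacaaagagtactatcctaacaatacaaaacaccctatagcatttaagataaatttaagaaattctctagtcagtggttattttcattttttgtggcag
The Kmt2d window held 26 CG pairs and 67.6% G and C, and 9.59% of 32851 windows of this length hold as many CG pairs or more (the median window holds 6). The Setd5 window held 0 CG pairs and 36.8% G and C. Both windows belong to transcripts that start inside the annotated gene, 2872 bp from its outer end for Kmt2d and 27673 bp for Setd5. Neither window shows the outermost start, and both lie within the annotated span. The deposited length of Kmt2d is 39537 bp against a span of 42409 bp. That length is what remains without the outer 2872 bp, so the Kmt2d window may lie outside the counted part of the gene. Windows were matched for 6 of the 9 genes, and the other 4 of these held 29 CG pairs (Kmt2a), 48 (Kmt2c), 25 (Setd1a) and 22 (Paxip1). Kmt2b, Kmt2e and Setd1b had no match. The counts do not resolve any part of a gene, so nothing in these data says where in the gene the reads fell.

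The V5 libraries held 806648 to 3286602 counts, the wild-type libraries 1288732 to 2504595 and the input 3488745. All 9 genes had reads in every library and passed the filter on low counts, so none rests on a value of 0. Values below are counts per 1e6 counts of the library (CPM), and comparisons of level between genes use CPM per kb of the gene length given in the table. Over 14575 tested genes edgeR's quasi-likelihood test called 0 genes higher and 0 lower in V5 at an adjusted p of 0.05 (percent called 0 in each direction, 600 genes at an unadjusted p under 0.05, smallest adjusted p 0.980), and none of the 9 genes was called. DESeq2, fitted to a wider set of 24447 genes without that filter, also called 0 genes (1048 at an unadjusted p under 0.05). Its own default filtering can leave genes of that set without an adjusted p. Limma-voom called 4 of the 14575, none of them among these 9. The log2 fold change was over 1 in V5 in 5.37% of tested genes and under -1 in 3.42%; of the 9 genes, Kmt2b and Kmt2d were beyond the former limit and Setd5 beyond the latter, and nothing is read from this because they were chosen with that contrast known.

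Kmt2d, the enhancer H3K4 methyltransferase (GeneID 381022, chromosome 15, 98831669 to 98874077 in mm10), was read 66, 88 and 138 times in V5 replicates 1, 2 and 3 and 30, 33 and 58 times in wild-type replicates 1, 2 and 3, beside 101 times in the input. Scaled by depth these are 81.8, 77.3 and 42.0 CPM in V5, 23.3, 24.9 and 23.2 CPM in wild type and 29.0 CPM in the input. The 3 V5 values were all above the wild-type values and the input, and the lowest of them came from replicate 3, which has the most reads of the ChIP libraries. Its 95% exact Poisson interval, which covers counting error only, ran from 35.3 to 49.6 CPM, while the highest upper bound of a wild-type library was 34.9 CPM and that of the input 35.2 CPM. The means were 67.0 ± 21.8 CPM in V5 and 23.8 ± 0.950 CPM in wild type (SD, n = 3), a 2.82-fold ratio, and the fitted log2 fold change was 1.52 (SE 0.41). It ranged from 1.29 without V5 replicate 1 to 1.80 without V5 replicate 3.

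The wild-type values of Kmt2d were closer together than most. Measured as chi-square per degree of freedom around 1 common rate, where 1 is counting error alone, the spread was 0.0577 in wild type and 15.2 in V5. The medians over all tested genes were 3.43 and 6.07. So the V5 libraries differed among themselves in Kmt2d by more than counting error, and the wild-type libraries by no more than it. With 3 libraries the wild-type value is not read as a spread below counting error. The shallower V5 libraries 1 and 2 had the higher Kmt2d values, and the part of depth in this was not tested.

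Kmt2c, the close relative of Kmt2d with the same place in enhancer complexes (GeneID 231051, chromosome 5, 25271795 to 25498855), is the longest of these genes at 226990 bp in the table. It had 229, 339 and 264 CPM in V5, 216, 301 and 285 CPM in wild type and 288 CPM in the input. The groups overlapped widely, and each had libraries on both sides of the input. The value on the log2 scale was 0.08 (SE 0.18), with the smallest SE of the 9 genes, and the sign turned when V5 replicate 2 (-0.08) or wild-type replicate 1 (-0.06) was left out.

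Paxip1, whose product PTIP belongs to the KMT2C and KMT2D complexes (GeneID 55982, chromosome 5, 27740080 to 27791672), had 68.2, 28.1 and 49.9 CPM in V5 and 58.2, 30.9 and 34.3 CPM in wild type, with 32.4 CPM in the input. Replicate 1 was the highest and replicate 2 the lowest in each group, and the groups overlapped. Its log2 fold change of 0.28 (SE 0.43) became -0.08 when V5 replicate 1 was left out and 0.61 when wild-type replicate 1 was. The 2 enhancer enzymes and this shared partner thus had unlike values, with Kmt2d apart between the groups and the other two overlapping; the difference between the genes was not tested.

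Kmt2b, which encodes the menin-binding promoter enzyme MLL2 (GeneID 75410, chromosome 7, 30568855 to 30589056), had few reads. It was read 21, 34 and 43 times in V5, 13, 8 and 17 times in wild type and 51 times in the input, or 26.0, 29.9 and 13.1 CPM against 10.1, 6.03 and 6.79 CPM, with 14.6 CPM in the input. The V5 values were all above the wild-type values, which in turn were all below the input. V5 replicate 3 was again the lowest V5 library and lay under the input, and its interval of 9.47 to 17.6 CPM overlapped that of wild-type replicate 1, 5.37 to 17.3 CPM. The means were 23.0 ± 8.79 CPM and 7.63 ± 2.16 CPM (SD, n = 3), and the log2 fold change of 1.61 (SE 0.67) was the highest of the 9 genes with the largest SE.

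Kmt2a, which encodes the enzyme MLL1 (GeneID 214162, chromosome 9, 44803355 to 44881352), had 73.1, 61.5 and 60.2 CPM in V5, 69.8, 58.0 and 66.7 CPM in wild type and 52.2 CPM in the input. The 2 groups lay on top of each other, at means of 65.0 ± 7.11 and 64.8 ± 6.13 CPM (SD, n = 3), and all 6 ChIP libraries lay above the input. On the log2 scale the fold change was 0.03 (SE 0.31), and leaving out single libraries moved it between -0.12 and 0.11. The menin-binding pair therefore had Kmt2b among the genes with separate groups and Kmt2a among those without.

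Setd1b, 1 of the 2 enzymes that write the bulk of promoter methylation (GeneID 208043, chromosome 5, 123142040 to 123168630), had 26.0, 40.4 and 23.4 CPM in V5, 21.0, 18.8 and 22.0 CPM in wild type and 25.8 CPM in the input. The V5 libraries lay above the wild-type libraries, but V5 replicate 3 was only slightly above wild-type replicate 3, well within counting error (18.5 to 29.3 CPM against 16.5 to 28.6 CPM). The log2 fold change of 0.56 (SE 0.50) was 0.29 without V5 replicate 2.

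Setd1a, the other of this pair (GeneID 233904, chromosome 7, 127777389 to 127800122), was read 10, 5 and 59 times in V5, 26, 25 and 39 times in wild type and 57 times in the input. Scaled, that is 12.4, 4.39 and 18.0 CPM against 20.2, 18.8 and 15.6 CPM, with 16.3 CPM in the input. V5 replicate 2 stood low with its 5 counts, while V5 replicate 3 lay inside the wild-type range. The log2 fold change was -0.59 (SE 0.66), moving to -0.21 when V5 replicate 2 was left out and to -1.06 when V5 replicate 3 was.

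Setd5 (GeneID 72895, chromosome 6, 113077262 to 113153432), the gene with the lowest log2 fold change of the 9, was read 27, 80 and 217 times in V5, 117, 179 and 327 times in wild type and 209 times in the input. Scaled by depth these are 33.5, 70.3 and 66.0 CPM in V5, 90.8, 134.8 and 130.6 CPM in wild type and 59.9 CPM in the input. The 3 wild-type values were all above the V5 values and the input, and V5 replicates 2 and 3 lay near the input. The lowest lower bound of a wild-type library was 75.1 CPM (exact Poisson, 95%), under the upper bounds of V5 replicate 2 at 87.5 CPM and V5 replicate 3 at 75.4 CPM. The means were 56.6 ± 20.1 CPM in V5 and 118.7 ± 24.3 CPM in wild type (SD, n = 3), and wild type was 2.10-fold higher. The log2 fold change was -1.03 (SE 0.30), between -1.20 without wild-type replicate 1 and -0.83 without V5 replicate 1.

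Kmt2e, the relative of Setd5 (GeneID 69188, chromosome 5, 23433036 to 23504235), had 58.3, 120.3 and 84.9 CPM in V5, 86.9, 64.8 and 55.5 CPM in wild type and 61.6 CPM in the input. The groups overlapped, since V5 replicate 1 lay below 2 of the wild-type libraries. Its fold change on the log2 scale, 0.37 (SE 0.31), was 0.10 when V5 replicate 2 was left out and 0.57 when wild-type replicate 1 was. The gene overlaps Srpk2 and a long non-coding RNA gene at its ends, so a part of its reads may have been left uncounted.

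**Figure D1:**
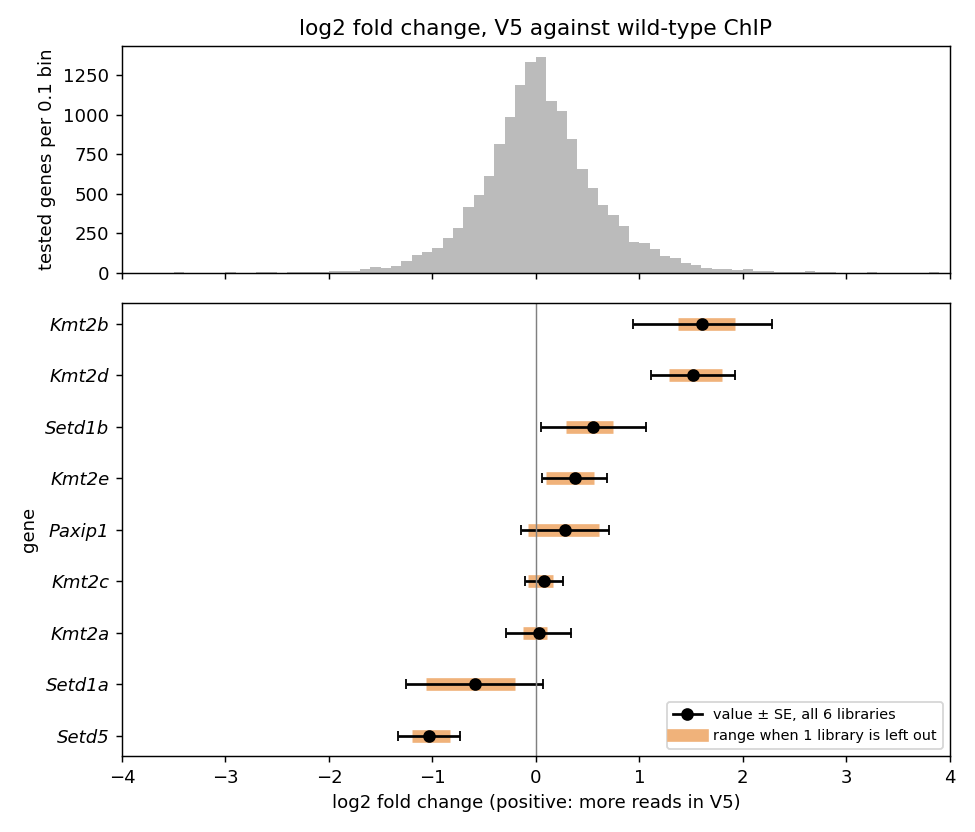
Log2 fold change between V5 and wild-type ChIP. The upper panel is a histogram of the 14575 tested genes in bins of 0.1, and the lower panel gives each of the 9 genes as a point with its SE and, as a band, the range when 1 library is left out. Kmt2b and Kmt2d lie at 1.61 and 1.52, Setd5 at -1.03, and the bands of Kmt2a, Kmt2c and Paxip1 cross 0.

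Across the 9 genes the log2 fold change was positive in 7 and negative in 2, with a median of 0.28. Over all tested genes 52.0% were positive and the median was 0.02. All V5 libraries lay above all wild-type libraries in 3 of the 9 genes (Kmt2b, Kmt2d and Setd1b), a separation found in 4.83% of all tested genes, and below them in 1 (Setd5), found in 5.27%. As these genes were chosen from this contrast, the shares are given side by side and nothing is read from them. Among all tested genes, Kmt2b stood at the 99.0 percentile of log2 fold change, Kmt2d at 98.7 and Setd5 at 3.08, while Kmt2a, at 50.8, was close to the middle.

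**Figure D2:**
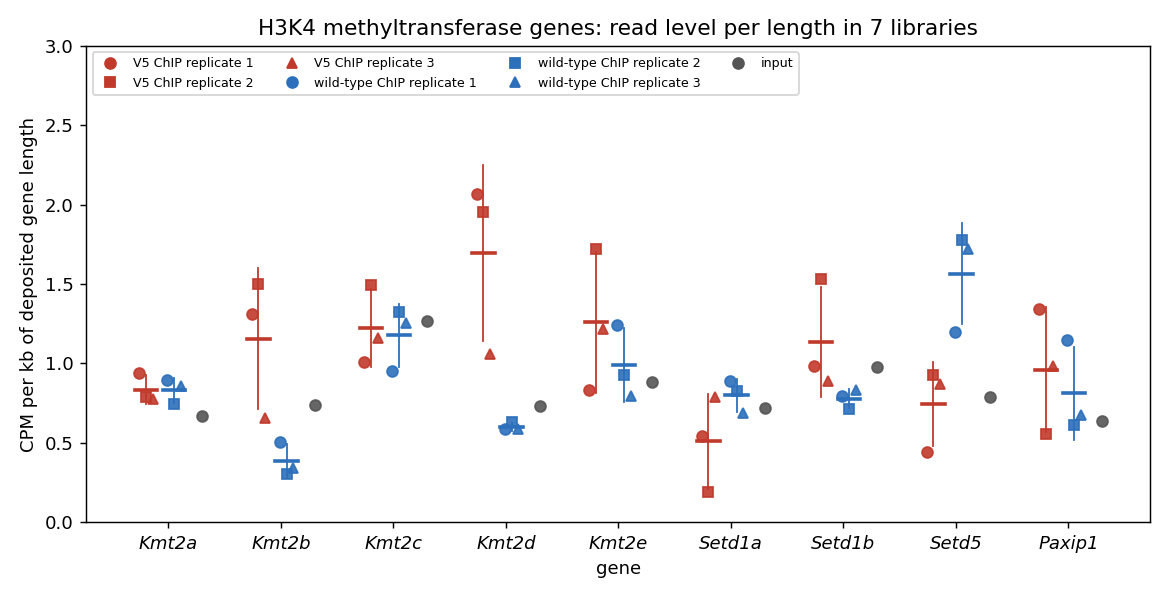
Reads per length, in CPM per kb of deposited gene length, for each of the 9 genes. Each point is a library (red V5, blue wild type, grey input), horizontal lines are the means of 3 libraries and vertical lines the SD. Kmt2d is the highest of the 9 genes in V5 at 1.70 and Setd5 is the highest in wild type at 1.57.

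Per length, the input held the genes within a narrow band. Kmt2c was highest at 1.27 CPM per kb, followed by Setd1b at 0.977, Kmt2e at 0.883, Setd5 at 0.790, Kmt2b at 0.736, Kmt2d at 0.732, Setd1a at 0.719, Kmt2a at 0.670 and Paxip1 at 0.639. For all tested genes the input median was 0.911 CPM per kb, with 0.529 and 1.57 at the 10th and 90th percentiles, so all 9 genes lay inside the usual range of the input. There is a single input, so neighbours in this order cannot be set against a spread.

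In wild type the order by CPM per kb was Setd5 at 1.57 ± 0.321, Kmt2c at 1.18 ± 0.199, Kmt2e at 0.989 ± 0.231, Kmt2a at 0.832 ± 0.0786, Paxip1 at 0.812 ± 0.294, Setd1a at 0.800 ± 0.104, Setd1b at 0.779 ± 0.0604, Kmt2d at 0.601 ± 0.0240 and Kmt2b at 0.384 ± 0.109 (SD, n = 3). Each neighbouring pair from Kmt2e to Setd1b differed by less than the larger SD of the pair, and Kmt2d and Kmt2b were the lowest of the family. In V5 the order was Kmt2d at 1.70 ± 0.552, Kmt2e at 1.26 ± 0.446, Kmt2c at 1.22 ± 0.247, Kmt2b at 1.16 ± 0.443, Setd1b at 1.13 ± 0.346, Paxip1 at 0.962 ± 0.396, Kmt2a at 0.834 ± 0.0913, Setd5 at 0.747 ± 0.266 and Setd1a at 0.509 ± 0.300 CPM per kb (SD, n = 3). In this order no neighbouring pair differed by more than the larger of its SDs. Setd5 moved from the top of the wild-type order to near the bottom of the V5 order, and Kmt2d from near the bottom to the top.

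The coefficient of variation was larger in V5 than in wild type for all 9 genes, by a wide margin for Kmt2d (32.5% against 3.996%), Setd1a (58.9% against 13.0%) and Setd1b (30.5% against 7.75%), and by little for Kmt2a (10.95% against 9.45%). This is shared with the rest of the table, where the median was 40.5% in V5 and 25.7% in wild type. The coefficient of variation includes counting error, which is larger in the 2 shallower V5 libraries. Chi-square per degree of freedom sets the spread against counting error. It was 6.36 in V5 and 6.81 in wild type for Setd5, 8.24 and 7.80 for Paxip1 and 0.874 and 0.781 for Kmt2a. At an equal relative spread this value rises with the number of reads, and Setd5 had fewer reads in V5 as a group. It therefore does not rank the groups by relative spread.

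**Figure D3:**
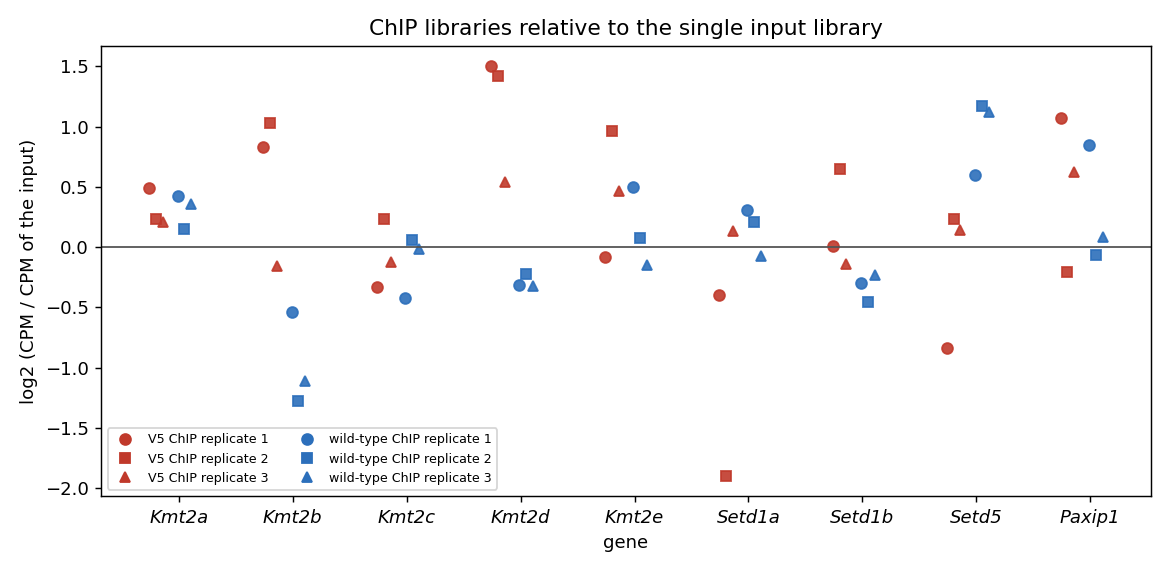
Each ChIP library relative to the single input, as log2 of the ratio of CPM, for the 9 genes; red symbols are V5 and blue symbols wild-type replicates, and the line at 0 is the input. The V5 libraries of Kmt2d and the wild-type libraries of Setd5 lie above the line, and the wild-type libraries of Kmt2b, Kmt2d and Setd1b lie below it.

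Set against the input, Kmt2d, Setd5 and Kmt2b differed in which group departed from it. These ratios compare mean CPM, with 0.5 added to each count, they share the 1 input library, and they have no test. Kmt2d stood at a log2 ratio of 1.21 in V5 (SD of single libraries 0.54) and at -0.27 in wild type (SD 0.060), so its difference lay mainly in V5 reads above the input. Setd5 stood at -0.08 in V5 (SD 0.58) and at 0.99 in wild type (SD 0.32), so its difference lay in wild-type reads above the input, in libraries without the V5 epitope. Kmt2b stood at 0.66 in V5 (SD 0.64) and at -0.89 in wild type (SD 0.38), on both sides of the input.

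The ratio was above 0 in V5 for 6 of the 9 genes (52.3% of 16736 genes with enough reads) and in wild type for 5 (50.1%). A log2 ratio over 1 was found in 9.24% of those genes in V5, Kmt2d being the only one of the 9, and in 6.56% in wild type, which none of the 9 reached, although Setd5 at 0.99 was just under it and passed it with TMM factors over the 7 libraries (1.01) and without wild-type replicate 1 (1.15). None was under -1 either, as 8.86% of genes were in V5 and 7.25% in wild type. Kmt2b, at -0.89 in wild type, passed that limit without wild-type replicate 1 (-1.14). All 3 V5 libraries lay above the input in Kmt2a and Kmt2d, as in 19.4% of all genes, and in none of the 9 did all 3 lie below it (24.5% of all genes). All 3 wild-type libraries lay above it in Kmt2a and Setd5, as in 24.9%, and below it in Kmt2b, Kmt2d and Setd1b, as in 29.6%. The median ratio of the 9 genes was 0.32 in V5 and 0.17 in wild type, against 0.04 and 0.0015 for all genes. For Kmt2a the ratios of both groups were alike, at 0.32 and 0.32, and for Kmt2c they were -0.05 and -0.11.

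Together the 9 genes held 609, 771 and 621 CPM in V5, 596, 658 and 639 CPM in wild type and 580 CPM in the input. The groups overlapped, with means of 667 ± 90.4 and 631 ± 31.7 CPM (SD, n = 3). Without Kmt2d and Setd5 the other 7 genes held 543 ± 70.2 CPM in V5 and 488 ± 8.43 CPM in wild type, and 491 CPM in the input.

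**Figure D4:**
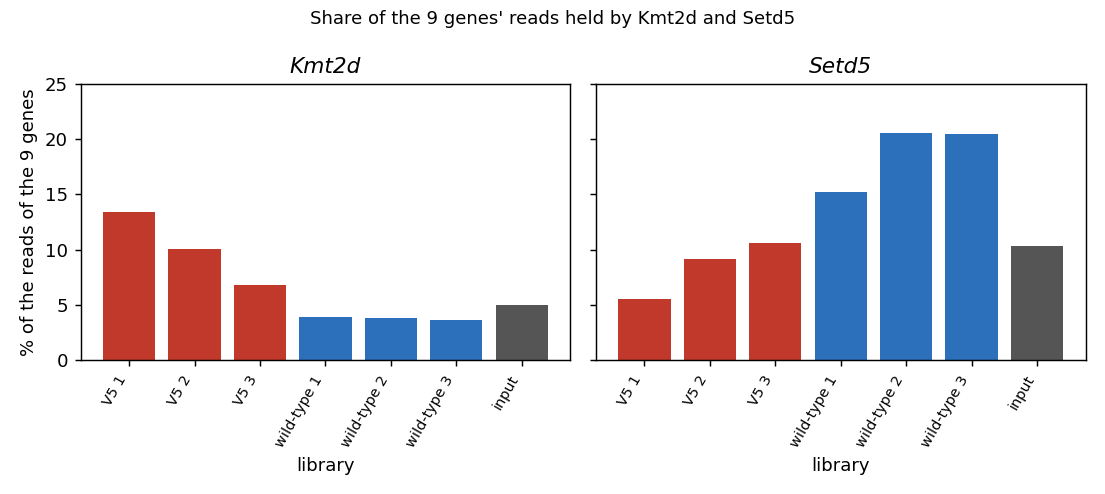
Share of the reads of the 9 genes that fell in Kmt2d (left) and Setd5 (right), in percent, with 1 bar per library from 0. Kmt2d holds 6.76% to 13.4% in V5 and 3.62% to 3.91% in wild type, and Setd5 holds 5.50% to 10.6% in V5 and 15.2% to 20.5% in wild type.

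Within the family, Kmt2d took 13.4%, 10.02% and 6.76% of the reads in V5, 3.91%, 3.78% and 3.62% in wild type, while in the input it took 4.99%. Setd5 took 5.50%, 9.11% and 10.6% in V5, 15.2%, 20.5% and 20.4% in wild type, and 10.3% of the input's. The shares do not depend on library scaling, and the groups were apart in both genes. Both genes were chosen with this difference in view, so nothing is read from the separation. Both are also part of the total, so a low share of one raises the share of the other. Reads per kb in Kmt2d divided by those in Setd5 were 4.69, 2.11 and 1.22 in V5, 0.491, 0.353 and 0.340 in wild type, with the input at 0.926. The input thus lay between the groups, nearest to V5 replicate 3.

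**Figure D5:**
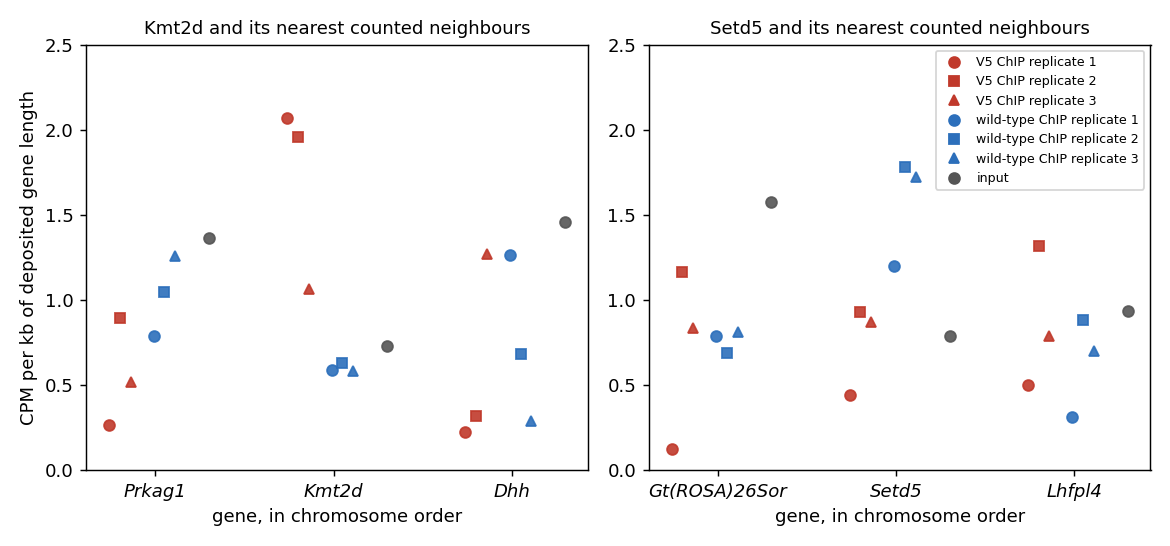
CPM per kb of Kmt2d (left panel) and Setd5 (right panel) and of the nearest gene on each side with at least 70 counts, in chromosome order; red symbols are V5, blue symbols wild type and grey the input. The V5 and wild-type libraries are apart in Kmt2d and Setd5 and overlap in all 4 neighbours.

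The genes beside Kmt2d and Setd5 did not share their separation. Prkag1, a subunit gene of the AMP-activated protein kinase, lies 161 bp from Kmt2d and had 4.96, 16.7 and 9.74 CPM in V5 and 14.7, 19.6 and 23.6 CPM in wild type; the groups overlapped and the log2 fold change was -0.86 (SE 0.65). Dhh, which encodes the ligand desert hedgehog and lies 7538 bp away on the other side, was read 1, 2 and 23 times in V5 and 9, 5 and 4 times in wild type and was too low to be tested. Beside Setd5, the Rosa26 gene Gt(ROSA)26Sor at 18 bp had 1.24, 11.4 and 8.22 CPM in V5 and 7.76, 6.78 and 7.99 CPM in wild type, with 15.5 CPM in the input. Lhfpl4, a membrane protein gene 14655 bp away on the other side, had 13.6, 36.0 and 21.6 CPM in V5 and 8.54, 24.1 and 19.2 CPM in wild type. Over the 7 libraries all 4 neighbours had fewer reads than the gene beside them, so their values are less precise, and whether they differ from Kmt2d or Setd5 was not tested.

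Profiles over the 7 libraries were compared by Pearson's r of log2 CPM among 11630 genes with at least 70 counts in all and 5 in each library; these values describe likeness and the genes share the libraries and their depth. Nearest to Kmt2d were Mex3b, an RNA-binding protein gene (r = 0.990), the phospholipase gene Pla2g4f (r = 0.990) and the zinc finger gene Zfp831 (r = 0.980). Mex3b was read 22, 31 and 30 times in V5, 6, 7 and 10 times in wild type and 26 times in the input. Of the family, Kmt2b had r = 0.913, Setd1b r = 0.765 and Setd1a r = -0.736 with Kmt2d, while Kmt2c, its closest relative, had r = 0.107. Nearest to Setd5 were Shq1, which helps assemble small nucleolar particles (r = 0.973), Nsmce2, a SUMO ligase of the SMC5/6 complex (r = 0.970), and Tiprl (r = 0.960). Kmt2d and Setd5 had r = -0.765 with each other. They were chosen with their opposite differences between the groups in view, so nothing is read from that sign. With Setd5, Kmt2b had r = -0.840 and its relative Kmt2e r = -0.026.

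The genes of the core COMPASS subunits showed no common direction. Of 4 tested, 2 had a positive and 2 a negative log2 fold change, with a median of -0.12, 0 were called, and 1 (Dpy30) had all V5 libraries below all wild-type libraries, as did 5.27% of all tested genes. Wdr5, the WD-repeat scaffold, had 63.2, 14.1 and 23.4 CPM in V5 and 16.3, 13.6 and 16.4 CPM in wild type, with V5 replicate 1 far above the other 5 ChIP libraries, and its log2 fold change was 1.15 (SE 0.59). Rbbp5, another WD-repeat subunit, stood at -0.43 (SE 0.57) and Ash2l, which stimulates the enzymes together with RBBP5, at 0.18 (SE 0.40). Dpy30, the small dimeric subunit, had 14.9, 22.8 and 14.9 CPM in V5, 24.1, 36.2 and 25.6 CPM in wild type and 47.9 CPM in the input, and its log2 fold change was -0.68 (SE 0.53); both groups lay below the input.

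Partners that belong to single complexes had 7 of 11 genes tested, 3 positive and 4 negative, 0 called, with a median of -0.04. The highest was Hcfc1, a host cell factor of the SETD1 and MLL complexes, at 0.78 (SE 0.66), with 4.96, 30.7 and 25.6 CPM in V5 and 10.9, 12.1 and 13.2 CPM in wild type, and V5 replicate 1 on the other side of wild type from the other V5 libraries. The lowest was Bod1l, a partner of SETD1A, at -0.47 (SE 0.45), with 36.0, 16.7 and 61.5 CPM in V5 and 33.4, 50.5 and 79.5 CPM in wild type. Men1, Cxxc1 and Bod1 were too low to be tested, and Pagr1a is listed at 0 counts in all 7 libraries.

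Of the 6 genes for enzymes that remove H3K4 methylation, all tested, 3 were positive and 3 negative, 0 were called and the median was 0.01. Kdm5b, a demethylase of the triple mark, was the highest at 0.93 (SE 0.30), with 151.2, 163.4 and 82.5 CPM in V5, 86.1, 70.1 and 57.1 CPM in wild type and 93.4 CPM in the input. V5 replicate 3 lay inside the wild-type range and below the input, so the groups overlapped. Kdm5d, the copy on chromosome Y, was the lowest at -0.92 (SE 0.82), with 11.2, 7.91 and 3.65 CPM in V5 and 11.6, 26.4 and 4.79 CPM in wild type, where wild-type replicate 2 stood above all other libraries. The sample titles do not give the sex of the embryos. Its part in the values of Kdm5d, and of Hcfc1 on chromosome X, was not tested.

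Among 26 other SET-domain methyltransferase genes, some of which, such as Setd7, are also known for H3K4 methylation, 23 were tested, 10 positive and 13 negative, with 0 called and a median of -0.09. Setmar, a SET-domain gene with an added transposase in primates, was highest at 1.10 (SE 0.82), with 31.0, 10.54 and 4.26 CPM in V5 and 5.43, 8.29 and 7.59 CPM in wild type, where V5 replicate 1 alone stood far above. Setdb2, a methyltransferase of lysine 9, was lowest at -0.66 (SE 0.43), with 18.6, 35.1 and 27.7 CPM in V5 against 40.3, 39.9 and 50.3 CPM in wild type and 44.7 CPM in the input. Groups were separate with V5 above in 1 of the 23 genes (4.83% of all tested genes) and with V5 below in 2 (5.27% of all tested genes). No value in these related lists reached the log2 fold change of Kmt2b or Kmt2d. Nothing is read from this, because Kmt2b and Kmt2d belong to a set chosen with this contrast known. No list is called different from the 9 genes, as that was not tested.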

How the data were processed

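Anti-V5 ChIP libraries of tagged (3) and wild-type (3) pharyngeal arches and 1 input of tagged arches were analysed, grouped by the sample titles. Raw read counts for each gene were deposited beside a gene length, per the file headers. Per the submitters' processing notes, bcl2fastq, featureCounts, MACS and the build mm10 were used; aligner, duplicate handling and counting options: not given in the sources used here. For 69.9% of genes with a symbol the deposited length was within 1% of the RefSeq gene span, so introns are mostly included and a local signal is diluted; for Kmt2d it was 93.2% of the span. The 7 single-library tables were identical to the joint table. Gene identifiers matched a RefSeq symbol (GRCm38.p6) for 25275 of 27179 genes. No 2 libraries agreed within sampling noise (chi-square per degree of freedom at least 4.17).

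The V5 against wild-type fit used edgeR 4.0.16 (R 4.3.3), with filterByExpr at a minimum count of 10 and TMM scaling (robust quasi-likelihood F test, two-sided, Benjamini-Hochberg over 14575 genes, threshold 0.05). The SE comes from the F statistic. The script was tested on simulated data. DESeq2 1.42.0, limma-voom (limma 3.58.1), other scalings, no filter, the replicate number as a block and leaving out each library were alternatives. CPM are counts per 1e6 of the library total; ratios to the input cover genes with at least 70 counts. Exact Poisson 95% intervals cover counting error only.

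The members and the related gene lists were chosen with earlier results of these data known. Genes named besides the 9 members are, by rule, all core subunits, the highest and the lowest tested gene of each other list, the nearest gene with 70 counts on each side of Kmt2d and Setd5, and the 3 genes most like each in profile over genes with at least 5 counts per library. Srpk2, untested list genes and the genes called only under alternatives were named after their values were seen.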

Additional observations from a re-analysis of the deposited data

How the results depend on the processing

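The number of genes called between V5 and wild type was 0 and remained 0 with DESeq2 size factors, with library totals only and with DESeq2. It was 9 without a filter on low counts and 4 with limma-voom (Chl1, Sgcz, Skint3 and Skint6). Leaving out single libraries gave 0 to 2, with Chl1 and Rrp9 called without V5 replicate 2 and Dnah11 without V5 replicate 3. None of the calls was among the 9 genes or the related lists. The cause was not tested. Same-numbered V5 and wild-type libraries did not deviate together (correlations of 0.014, 0.0059 and 0.060 for replicates 1, 2 and 3), and not every library correlated best with its own number; with the replicate number as a block 1 gene was called, GeneID 100861531, which has no symbol here.

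The log2 fold changes of Kmt2b, Kmt2d, Kmt2e, Setd1a, Setd1b and Setd5 kept their sign under all 12 alternatives. That of Kmt2a turned with library totals only (-0.00059), with limma-voom (-0.060), and when V5 replicate 1 (-0.12) or wild-type replicate 2 (-0.050) was left out, and reached 0.11 at most. Kmt2c turned without V5 replicate 2 (-0.079) and wild-type replicate 1 (-0.056), with 0.17 as its highest value. Paxip1 turned without V5 replicate 1 (-0.076), with 0.61 as its highest. Positive genes numbered 1 to 3 in the core subunits, 3 to 5 in the single-complex partners, 2 to 5 in the demethylases and 9 to 12 in the other SET-domain genes when 1 library was left out. V5 lay above the input in 6 of the 9 genes (5 to 8 without 1 library) and wild type in 5 (5 to 5). At 5 to 138 counts per ChIP library, Setd1a, Kmt2b, Setd1b and Kmt2d are the members whose precision depth limits most.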
